A study of Arabidopsis thaliana with 12 samples.

Results

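Leaf RNA of the Arabidopsis thaliana otp90 mutant was sequenced from 2 kinds of extract, named Mito and Total, and the comparison of these 2 extracts within the mutant is described here. The libraries were chosen by their labels: 3 Mito and 3 Total libraries of the otp90 genotype, so 6 of the 12 libraries of the series. The mutant carries an insertion in OTP90 (AT1G25360), a nuclear gene for a pentatricopeptide repeat protein that takes part in RNA editing, in the Col-0 background. Both groups share this 1 mutant line, the tissue (leaf), the growth in long days and the age of 35 days, at which the plants were still vegetative. They differ in the extract alone as far as the labels go. How the Mito extract was prepared is not given in the sources used here, so Mito and Total are used as names of libraries. The remaining 6 libraries are the same 2 extracts of wild-type Col-0 plants (WT) and serve only to show where otp90 differs.

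Plant cells hold 3 genomes. The mitochondrial genome encodes a small set of subunits of the respiratory chain and ATP synthase, cytochrome c maturation proteins, some ribosomal proteins, ribosomal RNA and transfer RNA, and the plastid genome encodes core subunits of the photosystems together with its own gene expression machinery. Most proteins of both organelles are made in the cytosol from nuclear genes and imported. Messenger RNAs of secreted and membrane proteins are translated at the endoplasmic reticulum, to which the ribosome is brought by a hydrophobic stretch near the start of the protein. A comparison of 2 extracts can show which of these transcript classes an extract holds more or less of, relative to the rest of its own RNA.

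The Mito libraries held 24660745 to 30706658 counts and the Total libraries 56800553 to 60464017, and 22326 to 22694 genes were detected in each. No 2 replicates agreed within sampling noise. OTP90 had 17, 6 and 9 counts in the Mito and 6, 10 and 7 in the Total libraries. An insertion need not stop transcription, so these counts do not check the label. Levels are given below as CPM, library counts scaled to a common total with TMM factors, and a log2 fold is Mito over Total. Markers of several organs or cell types moved with the extract, but not all did. None of 4 tested xylem markers was called (summed 21.0 to 22.61 CPM in Mito and 10.44 to 29.16 in Total). Of 4 tested guard cell markers 1 was higher and 1 lower. Neither of 2 tested senescence markers was called, the 1 tested trichome marker, GL2, was higher, and no flower marker was tested. The mesophyll list, which marks the bulk of the leaf, summed to 12820 to 14210 CPM in Mito and 19270 to 23300 in Total, with all 4 genes lower in Mito. All 4 tested epidermis markers were higher (summed 376.4 to 410.4 against 216.7 to 298.5 CPM), although ATML1 and PDF2, homeobox genes of this layer, stood at −0.02 and −0.06 with the length correction described below. Of the 5 markers of dividing cells 4 were higher (13.69 to 14.94 against 4.605 to 6.311 CPM), but 2 of these 4 passed the filter of 1 CPM in 3 libraries through the Mito group alone and could only come out higher. All 3 phloem markers were lower (112 to 157.2 against 237.1 to 255.5 CPM). Of the 4 shoot meristem markers 2 were tested: STM, a homeobox gene of the meristem, had 65, 76 and 63 counts in Mito and 0 in each Total library, at least 33.25-fold higher against a floor of 3 counts per library, and KNAT1 had 34, 65 and 38 against 0, at least 22.13-fold higher. WUS and CLV3, which mark the centre of the meristem, were at 0 in all 6 libraries. Of the root list, which summed to 39.36 to 44.7 CPM in Mito and 3.914 to 5.304 in Total, only PYK10, a beta-glucosidase of the root, was higher, with 35.04, 39.26 and 40.06 CPM in Mito against 0.05991, 0.1711 and 0.8223. The other tested root marker, SHR, was not called (4.142 against 4.422 CPM on average), and WER and PHT1-1 were near 0 in both extracts. Both tested meristem markers, PYK10, PDF1 of the epidermis list and GL2 of the trichome list also passed the filter through the Mito group alone. Their direction was thus fixed by the filter. The part of these cell types in the results below was not tested, and the preparation of the extract and the plant material that went into it cannot be told apart. In such bulk samples, fewer cells of a type and less RNA per cell cannot be told apart either.

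Of 16337 genes tested, 4049 were higher in Mito (24.8% of those tested) and 3650 were lower (22.3%), at an adjusted p under 0.05 in edgeR's quasi-likelihood test. The 2 directions were thus near balance, 52.59% of the calls being higher, and the median log2 fold of all genes was 0.02. The filter fixed the direction of some genes: 708 passed it through Mito alone (571 called higher) and 59 through Total alone (59 called lower). Among the 15570 others 3478 were higher and 3591 lower (median −0.01), again near balance. This balance rests on TMM scaling: with library size alone the median of all genes rose to 0.47 and the calls became 8795 higher and 1209 lower (87.91% higher). The count of higher genes fell to 2673 without Mito replicate 3, in a test with fewer libraries. Directions below are relative to the median of all genes under TMM.

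Mitochondrial RNA took a larger share and plastid RNA a smaller share of the Mito libraries. Transcripts of the mitochondrial genome made up 4.423, 5.161 and 5.083% of counts in the 3 Mito libraries and 1.007, 1.02 and 0.9653% in the 3 Total libraries. The groups lay far apart, at 4.889% ± 0.4056 (SD, n = 3) against 0.9975% ± 0.02871 (SD, n = 3), a ratio of 4.901. Most of this was protein-coding RNA (4.094 against 0.9218% on average), while mitochondrial ribosomal RNA, 0.4429, 0.8604 and 1.051% of counts in Mito and 0.09572, 0.0413 and 0.08345% in Total, had the larger ratio (10.68) and the larger spread. The plastid genome gave 48.66, 45.8 and 46.42% of the Mito counts and 61.16, 60.51 and 62.17% of the Total counts. It was thus the largest source of RNA in every Total library, and in Mito replicate 1 too, while nuclear counts were slightly ahead in Mito replicates 2 and 3. The transcript with the highest share was psbA: it encodes the D1 protein of photosystem II and took 15.76, 14.53 and 15.31% of the Mito counts and 29.25, 30.06 and 34.83% of the Total counts. Nuclear genes gave 46.92, 49.04 and 48.5% of the Mito and 37.83, 38.47 and 36.86% of the Total counts, a difference of 10.43 percentage points. With psbA left out of the totals, the nuclear difference was 1.769 points (exact permutation p = 0.2) and the plastid difference −6.078 points in place of −14.32. An exact permutation test, two-sided, gave p = 0.1 for the mitochondrial, plastid and nuclear shares with psbA included. This is the smallest value that 3 against 3 libraries allow, and the adjusted value over the 22 shares compared was 0.1158.

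**Figure D1:**
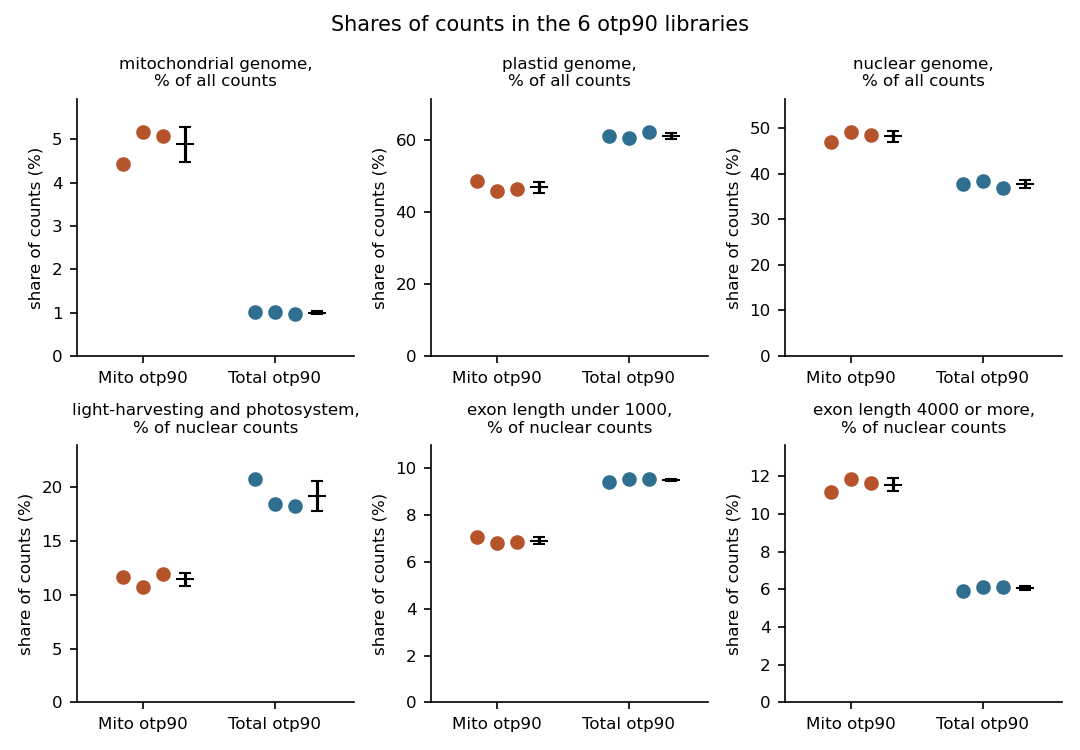
Share of counts (percent, linear axes from 0) of the 3 genomes among all counts, and of light-harvesting and photosystem genes and genes of short and long exons among nuclear counts, with 1 point per otp90 library and the group mean ± SD beside it (n = 3). The mitochondrial genome lies at 4.423 to 5.161% in Mito and at 0.9653 to 1.02% in Total, and the plastid genome at 45.8 to 48.66% and 60.51 to 62.17%.

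Almost every measured mitochondrial transcript was higher in Mito. Of its 62 genes 55 were tested, 54 were called higher and none lower, with a median log2 fold of 1.74 beside 0.02 for all genes. Genes are counted here as entries of the annotation. In it nad1, nad2 and nad5 stand as several pieces, and atp6, trnK(TTT) and trnS(TGA) appear more than once. The entries are thus not all separate genes. All 38 protein-coding genes were higher (median 1.73). Under a correction for transcript length, described below, all 55 tested genes were higher with a median of 2.44. The correction uses annotated exon length, in 1 curve over all tested genes. For pieces such as a 22-base entry of nad5 this is not the length of the transcript, so corrected organelle values are uncertain. In WT the mitochondrial genes had a median of 1.37, and 51 of 53 were higher.

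Complex I of the respiratory chain, the NADH dehydrogenase, rose in all 14 mitochondrial entries (median log2 fold 1.72), among them the pieces of nad1, nad2 and nad5. Its most abundant transcript was nad4, with 2455, 2409 and 2490 CPM in Mito and 674.2, 711.2 and 611.1 in Total (log2 fold 1.88, adjusted p = 6.035e-05), and its largest rises included nad7, with 1322, 1405 and 1106 against 329.8, 311.9 and 294.6 CPM (2.03, adjusted p = 6.831e-05). In both genes the lowest Mito library stood above 3 times the highest Total library. The 10 genes of cytochrome b, cytochrome c oxidase and ATP synthase, the later steps of the chain, rose together as well (median 1.58). Among them atp1, the alpha subunit of ATP synthase, reached 5303, 5734 and 5350 CPM in Mito against 1663, 1769 and 1576 in Total (1.71), and cox3 1256, 1240 and 1327 against 385, 388.7 and 370.3 (1.74). The 2 groups stood clear of each other in both.

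The 6 genes of cytochrome c maturation and of mttB, a protein translocase gene, were higher too (median 1.91). ccmFN2 had 85.45, 93.93 and 46.78 CPM in Mito and 16.21, 15.25 and 14.53 in Total (log2 fold 2.30), Mito replicate 3 being the lowest of its group but still above every Total library. The 8 genes for ribosomal proteins and the maturase matR had the widest span, from 0.92 for rps12 to 2.49 for rps4 (median 1.89). rps4 had 341.7, 355.5 and 288.6 against 64.38, 63.4 and 47.83 CPM.

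Ribosomal RNA of the mitochondria rose most and varied most. The large-subunit RNA rrn26 had 3067, 5798 and 6798 CPM in Mito and 872.1, 371.3 and 728.8 in Total, a log2 fold of 2.99 (SE 0.403, adjusted p = 0.001117), and the small-subunit rrn18 748.2, 1413 and 2311 against 278.6, 103.4 and 245.3 (2.83, SE 0.503, adjusted p = 0.003471). Mito replicate 1 was the lowest of its group in both. The libraries had been depleted of ribosomal RNA, so what is counted is what that step left. In WT the folds of rrn26 and rrn18 were 0.83 and 0.44 and neither was called, but the difference between the genotypes was not called either (adjusted p = 0.9299 in the fit over 12 libraries). Of 21 mitochondrial tRNA genes 15 passed the filter on low counts and 14 were higher (median 1.74). Of these 15, 8 passed through the Mito group alone, having no Total library over 1 CPM, so their direction was fixed by the filter, and the 7 others were all higher (median 1.78). The exception was trnfM(CAT), with 0.98, 1.245 and 0.8786 CPM in Mito and 0.4393, 0.7984 and 0.6989 in Total (0.68, adjusted p = 0.08294). It was the 1 tested mitochondrial gene that was not called, and it lay close to the filter of 1 CPM. Nuclear genes in the mitochondrial DNA insert of chromosome 2 share reads with the mitochondrial copies: 89 of the 93 tested were higher (median 1.74), so they are reported as uncertain and are left out of the counts of nuclear lists below.

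**Figure D2:**
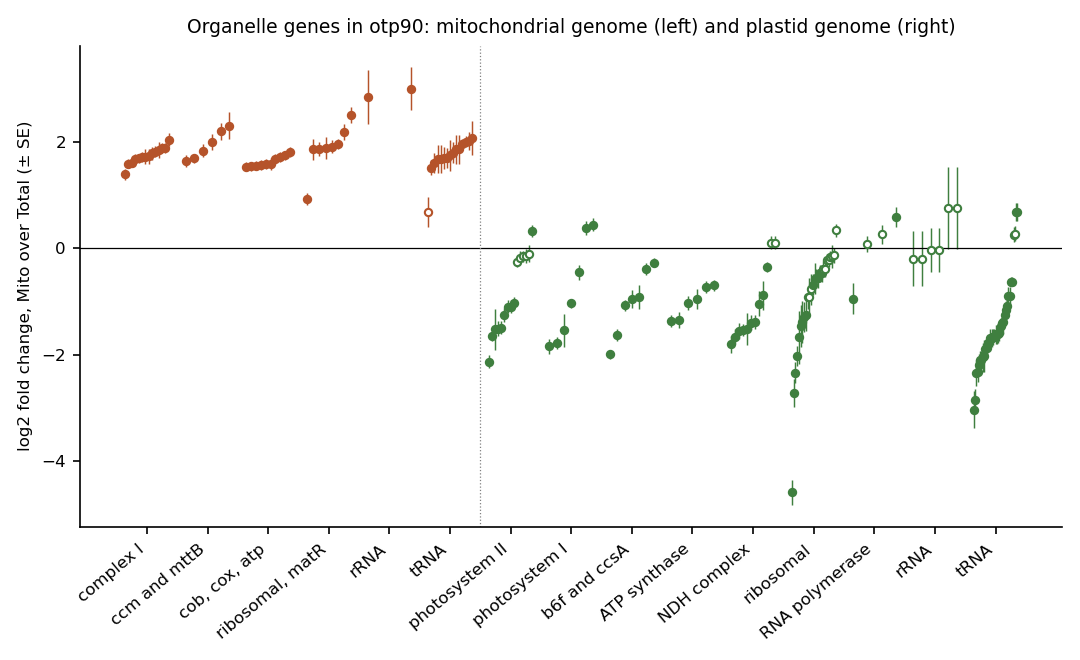
Log2 fold (Mito over Total, otp90) ± SE of tested organelle genes by functional group, 1 point per gene, mitochondrial genome on the left and plastid genome on the right, with filled points for called genes and open points for the rest. Every mitochondrial point lies above 0 and 1 of them, trnfM(CAT), is open, while most plastid points lie below 0, rpl32 being the lowest at −4.59.

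The plastid genome was lower in the Mito libraries, but less uniformly than the mitochondrial genome was higher. Of its 133 genes 130 were tested, 89 were lower and 7 higher (median log2 fold −1.01). Genes of the inverted repeat are counted here once per copy, and the copies share reads. After the length correction 55 were lower and 17 higher (median −0.42). In WT 96 were lower and 1 higher (median −1.24). psbA itself had 135800, 121800 and 132700 CPM in Mito and 351800, 345500 and 406700 in Total, a log2 fold of −1.50 (SE 0.1223, adjusted p = 0.0001698).

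Photosystem II, which splits water, had 9 of its 15 plastid genes lower and 1 higher (median −1.10), or 6 lower and 3 higher with the length correction (median −0.27). A large fall in this group was that of psbN, a short gene, with 183.5, 140.3 and 180.5 against 718.9, 730.1 and 765.6 CPM (−2.13). Photosystem I had 5 of 7 genes lower (median −1.04), or 3 with the correction (median −0.32), with psaJ at −1.85, and its 2 long core genes higher: psaB had 30520, 27400 and 29800 CPM in Mito against 23930, 22020 and 18660 in Total (0.44), and psaA, transcribed with it, 27950, 25330 and 28140 against 23320, 21370 and 18150 (0.37). These 2 rises were small and fragile, for psaB lost its call without Mito replicate 1 or 3 or without Total replicate 2 or 3 (log2 folds of 0.28 to 0.46) and psaA without every library but Mito replicate 2 (0.21 to 0.41). The same held for 3 other plastid genes called higher: psbZ (0.32) lost its call without any 1 of the 6 libraries (0.16 to 0.38), ATCG00290 (0.48) without every library but Mito replicate 3 (0.28 to 0.52), and rpoC2 (0.58) without every library but Mito replicate 1 (0.40 to 0.60). The remaining 2 were the trnA copies of the inverted repeat, at 0.67 and 0.68, which share reads with each other and lost their calls without Mito replicate 3 (0.62 and 0.64) or Total replicate 2 (0.58 and 0.60).

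All 7 genes of the cytochrome b6f complex and its assembly factor ccsA were lower (median −0.96), and 3 of the 7 with the length correction (median −0.25). The assembly gene ccsA fell from 495.5, 450 and 473.6 CPM in Total to 118.2, 124 and 112.9 in Mito (log2 fold −2.00, adjusted p = 6.001e-05). The most abundant of them, petB, was only slightly lower, at 6387, 6035 and 6179 against 7738, 7284 and 7492 CPM (−0.28). This direction turned with the processing, petB standing at 0.28 with the length correction and at 0.18 with library size alone, and its call was lost without any 1 of the Mito libraries, Total replicate 1 or Total replicate 2 (−0.35 to −0.23).

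All 6 plastid ATP synthase genes were lower (median −0.99), or 5 when corrected for length (median −0.59), for example atpH with 1219, 1332 and 1320 against 3735, 3186 and 3089 CPM (−1.37). Of the 12 genes of the plastid NDH complex, which drives cyclic electron flow, 10 were lower (median −1.39), or 7 lower and 2 higher when corrected (median −0.73), ndhC falling from 1018, 1020 and 939 CPM in Total to 232.5, 347.1 and 270.4 in Mito (−1.81). Every library of one extract stood clear of the other in both genes.

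Ribosomal protein genes of the plastid held the deepest fall and also members near 0. Of 26 genes 15 were lower and none was higher (median −0.63, with folds from −4.59 to 0.33), and with the length correction 5 were higher and 4 lower (median 0.01). rpl32 had 22.47, 35.3 and 19.93 CPM in Mito and 660, 599 and 611.7 in Total (log2 fold −4.59, adjusted p = 6.035e-05, −3.78 with the length correction), and rpl33 26.23, 50.36 and 34.27 against 264.7, 268.2 and 198.8 (−2.72). Even the highest Mito library of rpl32 stood far below the lowest Total library. The most abundant member, rps14, had 6077, 5143 and 5695 against 4989, 4451 and 3978 CPM (0.33, adjusted p = 0.05553) and was called only without Mito replicate 2 among the fits that left out 1 library (0.43). Plastid ribosomal RNA was not called in either direction in any of 6 tested entries (median −0.04), its shares overlapping between the extracts, whereas in WT 4 of these entries were lower. These entries are inverted repeat copies with nearly the same counts, so fewer separate genes stand behind them. Of 36 plastid tRNA genes 35 were tested, 31 were lower and 2 higher (median −1.62), and 21 and 4 with the correction (median −0.71). The one with the highest mean over the 6 libraries, trnL, had 243.6, 161.5 and 169.9 against 979.3, 942.9 and 697.9 CPM (−2.19).

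Nuclear genes for the photosynthetic apparatus fell with their plastid partners. All 44 nuclear genes of the light-harvesting complexes and photosystems were lower in Mito (median log2 fold −1.06, from −1.65 to −0.50), and 40 were lower with the length correction (median −0.74). Their summed share of nuclear counts was 11.69, 10.76 and 11.89% in Mito and 20.76, 18.46 and 18.28% in Total. PSAK, a small subunit of photosystem I, had 227.2, 257.5 and 263.6 CPM in Mito against 859.3, 774 and 721.7 in Total (−1.65). CAB1, a chlorophyll a/b binding protein and the most abundant of the list, had 7077, 6348 and 7215 against 11590, 10130 and 9549 CPM (−0.60), and its call was lost with the length correction (−0.28). Of the 5 genes for the Rubisco small subunit and Rubisco activase, which serve carbon fixation, 4 were lower (median −0.84), RBCS1A having 4447, 4130 and 4600 against 7393, 7102 and 5919 CPM (−0.63). Its call, too, was lost with the length correction (−0.33). RBCS1A and CAB1 are also 2 of the 4 mesophyll markers given above. Of 2303 tested genes annotated to the chloroplast, 953 were lower and 351 higher (median −0.25).

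Nuclear genes for mitochondrial proteins did not move with the mitochondrial genome. Of 79 nuclear genes of the respiratory chain 69 were tested, 46 were lower and 1 higher (median log2 fold −0.46). The 1 higher was AT1G04900 (0.66). SDH8, a subunit of succinate dehydrogenase, had 3.731, 3.763 and 3.76 CPM in Mito and 8.846, 8.117 and 9.805 in Total (−1.25), and AT5G61310, a cytochrome c oxidase subunit Vc gene and the most abundant of the list, 51.56, 22.96 and 27.1 against 116.8, 113.5 and 122.2 (−1.79). Mito replicate 1 of the latter was the highest of its group, yet under every Total library. Once length was corrected for, 17 of the 69 were lower and 4 higher (median −0.15). Of 12 tested genes of the outer-membrane import receptors and porins 6 were lower and 1, TOM40, was higher (median −0.32, and 0.01 with the length correction). Nuclear genes for organellar ribosomal proteins were lower in 28 of 47 cases and higher in none (median −0.49, −0.13 with the correction). Of the 4 mitochondrial Hsp60 and Hsp70 chaperone genes all 4 were higher (median 0.53), and 2 of the 4 with the length correction (median 0.41), led by HSP60-2 with 15.12, 16.57 and 16.83 against 6.21, 7.338 and 7.215 CPM (1.22). HSP60 (0.57) lost its call without Mito replicate 2 (0.52) or Total replicate 1 (0.45), and MTHSC70-2 (0.45) without any 1 Mito library or without Total replicate 1 (0.27 to 0.53). Over all 684 tested nuclear genes annotated to mitochondria, 139 were higher and 183 lower (median −0.07), near the background.

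Pentatricopeptide repeat proteins, the large family of organelle RNA-binding proteins to which OTP90 belongs, are encoded by low-expressed nuclear genes. The list was drawn from names in the annotation and need not hold the whole family. Of its 279 genes 172 passed the filter, 49 were higher and 11 lower (median log2 fold 0.24). The share higher, 28.49%, was near the 24.8% of all genes, while the share lower was 6.395% beside 22.3%. Among the 153 members with a library over 1 CPM in both extracts 34 were higher and 11 lower (median 0.17). Of all 15570 such genes 3478 were higher and 3591 lower. The counts with the length correction were 16 and 13 (median 0.07). PPR596 had 7.855, 10.35 and 8.259 CPM in Mito and 3.115, 5.19 and 2.261 in Total (1.32), and AT4G14200 6.564, 6.142 and 5.518 against 2.536, 2.794 and 1.665 (1.38). Both groups were apart in these 2 genes.

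Transcript length, the summed exon length in the deposited tables, went along with the fold across nuclear genes. Across 16059 nuclear genes outside the insert, Spearman's rho between exon length and log2 fold was 0.515, a description across genes, which share their libraries and are not independent replicates. It was 0.434 in 2186 genes with 1 exon, 0.638 in 2087 genes with a mean log2 CPM of 5 or more, and 0.557 in WT. In the 3 same-numbered Mito and Total pairs it was 0.457, 0.497 and 0.475. Of 145 tested genes under 500 bases 4.828% were higher and 53.79% lower (median −0.68). The share called higher then climbed with each length class, to 11.56% of 7399 genes of 1000 to 2000 bases (median −0.16), 36.99% of 6166 genes of 2000 to 4000 bases (median 0.24) and 79.93% of 807 genes of 4000 to 8000 bases (median 0.73). Of 35 tested genes of at least 8000 bases, 34 were higher and none lower (97.14% and 0.0%, median 1.62). Genes of at least 4000 bases made up 11.19, 11.87 and 11.65% of nuclear counts in Mito and 5.943, 6.142 and 6.129% in Total, a ratio of 1.905.

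**Figure D3:**
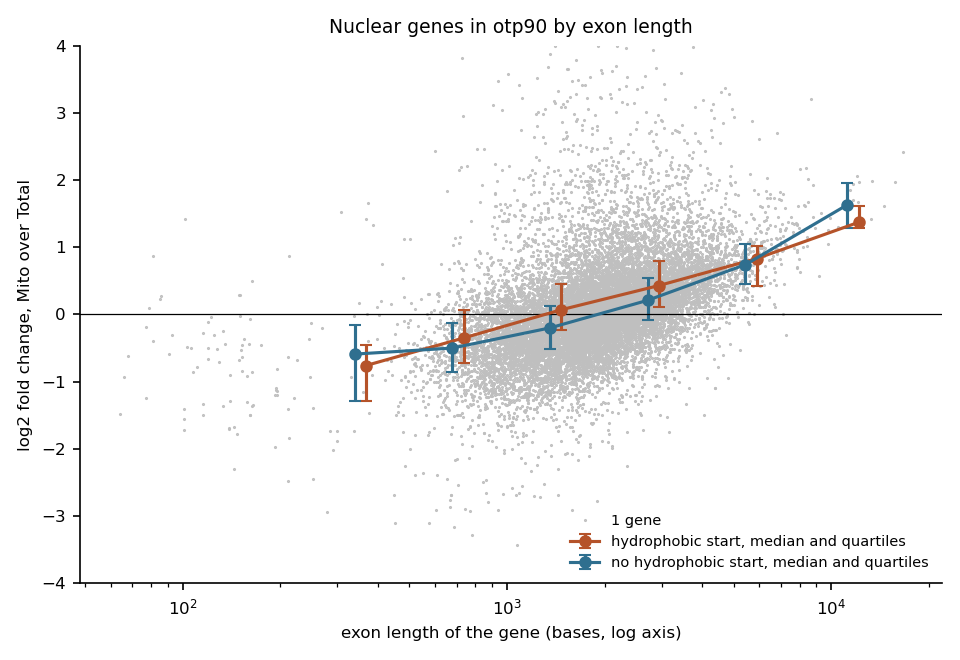
Log2 fold (Mito over Total, otp90) of tested nuclear genes outside the chromosome 2 insert against exon length (bases, log axis), 1 grey point per gene, with medians and quartiles of each length class for genes whose protein has a hydrophobic start (mean Kyte-Doolittle hydropathy of at least 2 over 12 residues within the first 40) and for the others, and with genes beyond 4 on either side not drawn. Both lines climb with length, from −0.76 and −0.59 under 500 bases to 1.37 and 1.63 at 8000 bases or more.

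Such a relation can be taken out of the counts, and the comparison was repeated with a smooth curve of log2 CPM on exon length removed from each library. This left a rho of 0.01 and 2779 genes higher (17.0%) and 2828 lower (17.3%), 4355 of the calls being shared with those without the correction. The 35 longest genes then had 11 higher and 5 lower (median 0.10). BIG, a protein of auxin transport with 15766 bases of exons, had 676.5, 678.5 and 724.8 CPM in Mito and 180.0, 177.6 and 171.6 in Total (log2 fold 1.98), and stood at 0.07 with the correction, no longer called. SPI, a BEACH-domain protein of 11999 bases, had 150.9, 156.2 and 160.6 against 38.66, 33.59 and 40.37 CPM (2.05, then 0.43), and the midasin-like gene AT1G67120, a ribosome assembly factor of 16614 bases, 147.2, 162.8 and 160.9 against 23.86, 36.61 and 28.04 (2.41, then 0.46). All 3 had groups far apart before the correction. The cause of the relation with length was not tested.

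**Figure D4:**
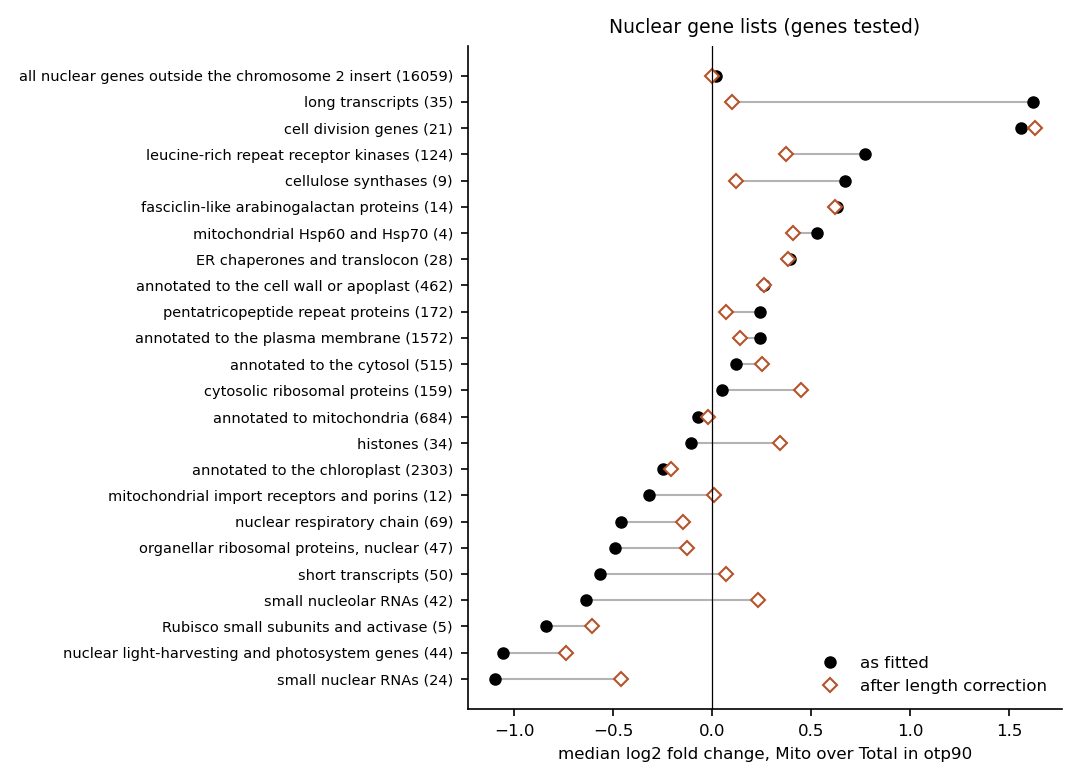
Median log2 fold (Mito over Total, otp90) of nuclear gene lists, in rows with the number of genes tested, as fitted (filled circles) and after the length correction (open diamonds). The long transcripts move from 1.62 to 0.10 and the cytosolic ribosomal proteins from 0.05 to 0.45, while the cell division genes stay at 1.56 and 1.63.

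Well-expressed nuclear genes with the largest rises are described first. The 10 largest rises, among genes with a mean log2 CPM of 5 or more, were CWLP, AT3G24480, AT1G67120, HSPRO2, LRX3, AT1G09750, GTB1, SPI, AT4G17140 and BIG. CWLP, a linker protein between cell wall and plasma membrane, had 57.28, 62.06 and 63.37 CPM in Mito and 10.3, 7.68 and 7.811 in Total, a log2 fold of 2.82 (SE 0.1371, adjusted p = 6.001e-05). AT3G24480, a leucine-rich repeat protein, had 55.88, 71.13 and 77.77 against 11.0, 12.01 and 12.66 (2.52). In each the Mito libraries lay several-fold above all Total libraries. LRX3, an extensin with leucine-rich repeats in the cell wall, had 53.33, 54.01 and 67.76 against 12.9, 12.87 and 14.2 (2.13), and AT1G09750, an aspartyl protease, 58.4, 61.39 and 63.44 against 17.93, 15.99 and 7.996 (2.13), with Total replicate 3 well under the rest. These 4, once corrected for length, stood at 2.91, 2.62, 1.77 and 2.27, while BIG, SPI, AT1G67120 and AT4G17140 (1.99) fell to 0.46 or less. HSPRO2, a stress-related gene, varied most among the 10, with 68.31, 39.32 and 51.52 against 16.47, 6.52 and 13.07 CPM (2.14, 2.17 with the correction). GTB1, a transcription elongation factor, had 51.95, 63.58 and 62.24 against 14.08, 14.68 and 13.07 (2.09, 1.22 with the correction).

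The 10 largest falls were of another kind. AT1G67865, an uncharacterized gene, had 11.42, 7.968 and 9.243 CPM in Mito and 91.02, 95.65 and 120.5 in Total (log2 fold −3.42, adjusted p = 6.035e-05). AT1G07590 had 18.35, 13.0 and 16.62 against 120.7, 130.1 and 172.3 (−3.14). The annotation names its product as tetratricopeptide repeat-like and places it in mitochondria, and the gene was not on the pentatricopeptide repeat list above. AT1G54410, a dehydrin, had 15.71, 15.24 and 9.77 against 82.75, 69.97 and 87.24 CPM (−2.56). No Mito library came near a Total library in these 3 genes. MT3, a metallothionein, had 62.08, 57.16 and 51.77 against 287.1, 281.8 and 362.0 (−2.44), and CCH, a copper chaperone of the cytosol, 28.25, 20.56 and 23.37 against 92.55, 89.91 and 111.7 (−2.03). Both groups were clear of each other. The remaining falls were AT1G64370 (−2.53), AT1G23130 (−2.50), the snoRNA gene AT5G02565 (−2.45), AT4G00780 (−1.88) and TRX3, a thioredoxin (−1.80). The 10 length-corrected folds lay between −3.32 and −1.42, and in WT the 20 genes had the same signs, with folds such as 1.87 for CWLP and −2.86 for AT1G67865.

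**Figure D5:**
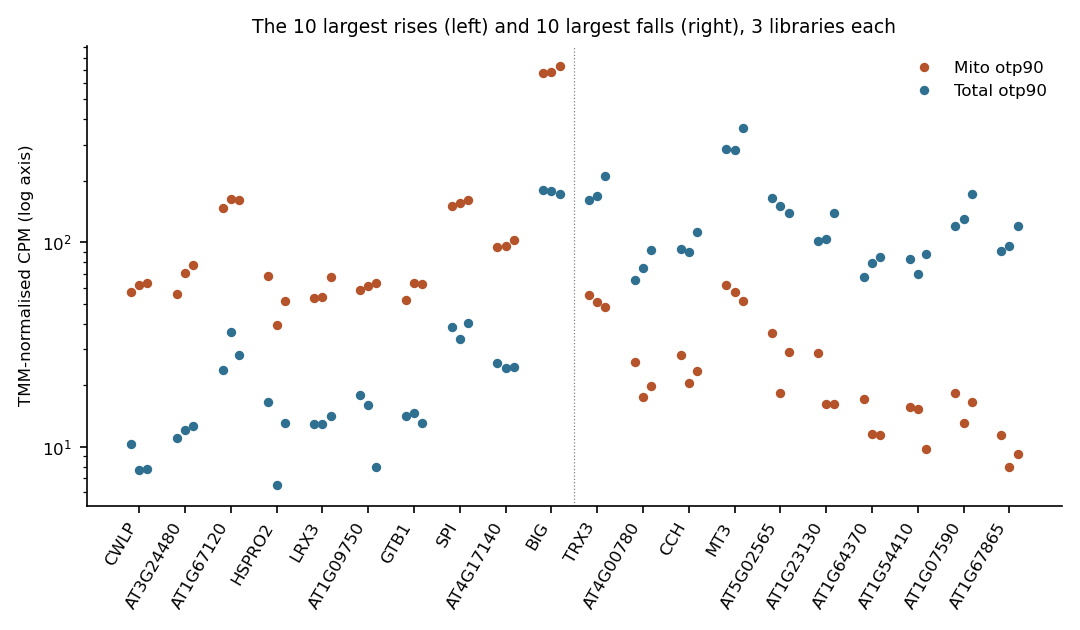
TMM-normalised CPM (log axis) of the 10 largest rises (left) and 10 largest falls (right) among well-expressed nuclear genes, 1 point per otp90 library in 2 colours for Mito and Total. The 2 colours do not overlap in any of these genes, which was a condition of their choice.

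The start of the coding sequence carries the stretch that sends a nascent protein to the endoplasmic reticulum, so it is shown for 5 rises and 3 falls, as the first 120 bases from the ATG, 5′ to 3′ on the coding strand, from the RefSeq annotation of build TAIR10.1. Capitals mark the 12 codons with the highest mean Kyte-Doolittle hydropathy of the encoded protein within its first 40 codons. Of the 10 largest rises 4 reached a mean of at least 2 in this stretch, and all 4 are shown: CWLP (chr3:7796219-7796338, minus strand, 3.22), AT3G24480 (chr3:8902519-8902638, minus strand, 3.30), LRX3 (chr4:7758610-7758729, plus strand, 2.66) and AT1G09750 (chr1:3157541-3157660, plus strand, 2.18). The other 6 lay between −1.36 and 1.69, and HSPRO2 (chr2:16701837-16701956, minus strand, 1.18) stands for them. No protein-coding gene among the 10 largest falls reached 2, the 3 shown being AT1G67865 (chr1:25446568-25446687, minus strand, 1.78), AT1G07590 (chr1:2338362-2338481, minus strand, 0.66) and AT1G54410 (chr1:20310482-20310601, minus strand, 0.87). The genes printed were chosen after these values were seen, and their starts are a description.
CWLP: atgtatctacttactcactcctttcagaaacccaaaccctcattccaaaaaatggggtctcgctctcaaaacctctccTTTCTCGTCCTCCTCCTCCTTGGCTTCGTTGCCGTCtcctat
AT3G24480: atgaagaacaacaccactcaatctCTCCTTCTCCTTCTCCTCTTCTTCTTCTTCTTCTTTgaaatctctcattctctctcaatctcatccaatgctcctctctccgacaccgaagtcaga
LRX3: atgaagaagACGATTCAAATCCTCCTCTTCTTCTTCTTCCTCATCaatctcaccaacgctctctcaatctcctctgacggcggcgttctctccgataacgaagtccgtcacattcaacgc
AT1G09750: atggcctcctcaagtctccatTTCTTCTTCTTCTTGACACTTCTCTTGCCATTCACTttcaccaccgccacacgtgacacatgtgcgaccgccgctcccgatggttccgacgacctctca
HSPRO2: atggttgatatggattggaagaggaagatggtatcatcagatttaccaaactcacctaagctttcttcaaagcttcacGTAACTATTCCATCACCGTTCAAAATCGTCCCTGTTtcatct
AT1G67865: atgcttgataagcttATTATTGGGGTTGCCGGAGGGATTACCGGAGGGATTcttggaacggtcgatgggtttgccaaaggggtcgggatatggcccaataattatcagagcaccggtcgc
AT1G07590: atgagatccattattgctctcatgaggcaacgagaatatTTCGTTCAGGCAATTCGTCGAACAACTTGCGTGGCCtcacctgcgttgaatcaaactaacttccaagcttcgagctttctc
AT1G54410: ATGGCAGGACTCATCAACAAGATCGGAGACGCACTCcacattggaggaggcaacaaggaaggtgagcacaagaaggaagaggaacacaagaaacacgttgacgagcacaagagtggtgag

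The same measure was then set beside the fold for all tested protein-coding nuclear genes. Of 2665 genes whose predicted protein reached the hydropathy of 2, 861 were higher (32.31%) and 318 lower (11.93%), with a median log2 fold of 0.20, and of 13093 others 3016 were higher (23.04%) and 3129 lower (23.9%), with a median of −0.02. The median exon lengths were close, 1908 and 1867 bases, and the medians with the length correction were 0.20 and −0.03. Hydrophobic starts had the higher median in the classes from 500 to 8000 bases, as in 0.07 against −0.20 at 1000 to 2000 bases and 0.43 against 0.21 at 2000 to 4000. Under 500 bases and from 8000 bases on the order was reversed, in classes of 14 and 4 such genes. The 3122 genes whose protein has no hydrophobic start but a hydrophobic span after residue 60 had a median of 0.05, or −0.03 with the correction. The genes compared here were grouped by sequence alone, with no test of the difference.

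The lists of wall and membrane locations differed in how many members were higher in Mito. Of 462 tested genes annotated to the cell wall or apoplast 171 were higher and 69 lower (median log2 fold 0.26 with and without the length correction). Within them, 249 genes with a hydrophobic start had 105 higher and 22 lower (median 0.38), and 213 without had 66 higher and 47 lower (median 0.13). GER3, a germin of the apoplast, had 22.86, 27.61 and 24.78 CPM in Mito and 1.258, 4.771 and 0.2056 in Total (3.58, SE 0.7766). All Total libraries were low, but they spread over more than 10 times. Of 1572 genes annotated to the plasma membrane 576 were higher (36.64%) and 208 lower (13.23%, median 0.24). With the length correction 361 were higher and 141 lower (median 0.14). Of 377 of the endoplasmic reticulum or Golgi 131 were higher and 23 lower (median 0.21), and of 1338 of the endomembrane system 341 and 224 (median 0.10). Such an excess was not particular to these locations. Of 1102 genes annotated to the nucleus 379 were higher (34.39%) and 164 lower (14.88%, median 0.14), or 243 and 137 with the correction (median 0.07). In the endomembrane list 25.49% were higher, close to the 24.8% of all genes. Of its genes 99 passed the filter through Mito alone (82 called higher) and 8 through Total alone (8 called lower). Among its 1231 others 259 were higher and 216 lower (median 0.05). The others of the plasma membrane list had 543 higher and 207 lower of 1530. For the cell wall the values were 159 and 69 of 448, and for the endoplasmic reticulum or Golgi 125 and 22 of 370. The endomembrane list includes AT1G62500, a lipid-transfer-like protein, with 351, 398 and 310 counts in Mito and 0 in each Total library, at least 171.9-fold higher. AT1G62500 passed the filter through Mito alone, so its direction was fixed by the filter.

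Within the wall families, the members called were mostly higher but many were not called. Xyloglucan endotransglucosylases, which cut and rejoin wall xyloglucan, had 6 higher and 2 lower of 16 tested among 33 (median 0.15), led by XTH9 with 37.37, 39.34 and 40.03 CPM in Mito against 5.571, 8.877 and 4.358 (2.63). Fasciclin-like arabinogalactan proteins, anchored to the cell surface, had 7 higher and 1 lower of 14 tested among 20 (median 0.63). Of these SOS5 had 11.36, 11.57 and 12.34 against 3.774, 3.194 and 3.31 CPM (1.78), and FLA8, the most abundant, 103.4, 113.7 and 123.4 against 54.83, 70.79 and 35.21 (1.08). The extracts did not overlap in either gene. Cellulose synthases had 6 higher of 9 tested (median 0.67), for example CESA1 with 326.6, 347.9 and 376.9 against 200.3, 190.3 and 171.5 CPM (0.90), but none was called with the length correction (median 0.12, CESA1 at 0.29). Expansins, which loosen the wall, were divided, with 4 higher and 5 lower of 16 tested among 35 (median 0.10): EXLB1 was lower (−1.81) and EXPB3 was higher (1.19), the latter losing its call without Total replicate 1 (1.12). Plasma membrane aquaporins, which carry water, had 2 higher (16.67%) and 4 lower (33.33%) of 12 (median −0.20), and PIP1A was lower at −0.52.

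Receptor kinases with leucine-rich repeats, which sense signals at the cell surface and are long transcripts, had 85 higher and 2 lower of 124 tested among 181 (median log2 fold 0.77). With the length correction 49 were higher and 11 lower (median 0.37). AT4G36180 had 11.5, 14.83 and 14.76 CPM in Mito and 1.498, 1.844 and 1.48 in Total (3.09), and GHR1, a kinase of guard cell signalling, 27.21, 27.5 and 30.61 against 8.167, 9.353 and 4.481 (1.95). The 2 lower members were AT5G63710 (−0.87) and AT1G29720 (−0.53). Of 28 tested chaperone and translocon genes of the endoplasmic reticulum 6 were higher and 3 lower (median 0.39). These are 21.43% and 10.71%, beside 24.8% and 22.3% of all genes. The most abundant, BIP1, an Hsp70 of that compartment, had 209.1, 257.2 and 186.7 against 93.89, 84.69 and 199.3 CPM. Total replicate 3 overlapped the Mito group, and BIP1 was not called (0.79, adjusted p = 0.0822), but it was without that library (1.21).

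Most tested cell division genes were higher in Mito, a list that holds all 5 of the dividing-cell markers given above. Of 27 genes 21 were tested, 19 were higher and none lower (median log2 fold 1.56, and 1.63 with the length correction). Of the 21, 9 passed the filter through the Mito group alone and so had to differ, and of the 12 others 10 were higher (median 0.98). HIK, a kinesin of the dividing cell plate, had 7.546, 9.158 and 9.032 CPM in Mito and 1.178, 1.673 and 0.7811 in Total (2.82), and CYCA3;2, a cyclin gene, was higher at 0.59. With 1 Mito library left out, when such members no longer pass, the median relative to all genes was 0.86 to 1.08 in place of 1.55 (lowest without Mito replicate 2). In the fit with no filter it was 1.43. Their summed share was small, 0.01908% of nuclear counts in Mito and 0.006725% in Total. Histone genes, whose short messages package new DNA, did not follow: of 34 tested among 44, 7 were higher and 8 lower (median −0.11). With the length correction 19 were higher and 2 lower (median 0.34). HTA11, an H2A variant, had 6.985, 5.063 and 7.451 against 3.614, 4.22 and 3.289 CPM (0.81), and AT2G28720, an H2B gene, 5.302, 6.336 and 4.885 against 14.34, 10.27 and 12.87 (−1.18).

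Cytosolic ribosomal protein genes stayed near the median of all genes. Of 174 genes 159 were tested, 8 were higher and 9 lower (median log2 fold 0.05), and with the length correction 85 were higher and none lower (median 0.45). Their share of nuclear counts was 1.633, 1.59 and 1.592% in Mito and 1.257, 1.564 and 1.134% in Total. The groups did not overlap, though Total replicate 2 came close, and the difference was 0.2866 percentage points. PGY2, the most abundant, had 139.2, 131.8 and 134.2 CPM in Mito and 113.9, 129.1 and 111.8 in Total (0.19, adjusted p = 0.1176), and AT1G58684 was higher (1.20) but shares reads with near-identical copies. In WT the same list had 4 higher and 84 lower (median −0.31). The difference of the effects between genotypes was called for no ribosomal protein gene.

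Short noncoding RNAs mostly had folds under 0, a direction that the snoRNAs lost with the length correction. Of 42 tested snoRNA genes, which guide the modification of ribosomal RNA, 16 were lower and none higher (median log2 fold −0.64). With the length correction 10 were lower and 9 higher (median 0.23, and 0.22 relative to all genes). Of 24 tested spliceosomal snRNA genes 18 were lower and none higher (median −1.10), but with the length correction 2 were lower (median −0.46). U1.7, the most abundant, had 816, 267.4 and 464.9 CPM in Mito and 1566, 1324 and 1472 in Total (−1.49), a wide spread in Mito that took its call away without Mito replicate 3 (−1.39). Its call was also lost with the length correction (−0.78). Of 13 tested microRNA precursors among 324, 10 were lower and 1, MIR5642a, was higher, with 307.9, 280.6 and 373.7 against 108.7, 107.3 and 89.48 CPM (1.66). Length-corrected, 3 of these precursors were lower and 1 higher. Long noncoding RNAs were tested in 121 of 3548 cases, with 37 lower and 11 higher (median −0.28, and −0.43 with the correction), AT3G59068 having 5.442, 3.182 and 3.304 against 13.9, 12.83 and 13.71 CPM (−1.76). None of the 602 nuclear tRNA genes passed the filter, and none of the 3 tested nuclear ribosomal RNA genes was called.

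The contrast of Mito and Total in otp90 was then set beside that in WT in 1 fit over 12 libraries. Of 16825 genes tested, 0 had a different effect in the 2 genotypes (0.0%) at an adjusted p under 0.05 in edgeR. At an unadjusted p under 0.05 there were 854 (5.08%), and DESeq2 called 6 (0.0357%). The 6 were CWLP (difference of log2 folds 0.94, adjusted p = 0.002761 in DESeq2), MAP1C (0.83), AT3G06355 (2.52), the plastid trnS ATCG00090 (−0.84), FLC (2.63) and AT3G58510 (1.11). The smallest adjusted p in edgeR was 0.9299. A difference between the genotypes was thus not detectable for single genes with 3 libraries a group in edgeR's test. The medians side by side were 1.74 and 1.37 for mitochondrial genes, −1.01 and −1.24 for plastid genes, −1.06 and −1.05 for nuclear light-harvesting and photosystem genes, and 0.77 and 0.71 for the receptor kinases.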

How the data were processed

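Each deposited table holds 1 library's raw counts, which the authors made with featureCounts 1.6.3 over exons on strand setting 2 with multi-mapping reads included, after STAR alignment of single-end, stranded, ribosome-depleted reads to TAIR10 (Ensembl Genomes annotation) with the Col-0 mitochondrial genome. The aligner opened no introns and kept all equally good positions, so near-identical copies share counts. edgeR 4.0.16 (R 4.3.3) was fitted to the 6 otp90 libraries with TMM factors, trended dispersion and glmQLFTest, for genes over 1 CPM in at least 3 libraries, with Benjamini-Hochberg adjustment at 0.05. Standard errors were back-calculated from coefficient and F statistic. The length correction entered as an offset a lowess curve (span 0.2) of log2 CPM deviations on log10 exon length per library. Shares were compared by exact permutation tests. Floors are 3 counts, and bounds against 0 use the highest TMM-scaled floor of the Total libraries, 0.06156 CPM. They cover counting error only. The labels give separate replicates, and p-values measure the spread between them. Of 32548 nuclear genes 99.95% had the span of the RefSeq annotation, which gave names, products, locations and sequences, and 123 of 133 plastid genes were matched.

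Members and gene lists were chosen with earlier results of these data known, and so were the lists' trimmed members. Named were OTP90, psbA, the 10 largest rises and falls with a mean log2 CPM of 5 or more and no overlap, in each list genes among the 2 largest called folds (mean log2 CPM of 2 or more) and the most abundant, and organelle genes against their genome's direction. Other names (rps12, AT1G04900, TOM40, AT5G63710, AT1G29720, the genes called by DESeq2 in the comparison with WT) were chosen after their values were seen. Alternatives were DESeq2 1.42.0, RLE size factors, library size alone, no filter, nuclear genes only, 12 libraries in 1 fit, a replicate block, the length correction, a log2 fold of at least 1, and leaving out each library.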

Additional observations from a re-analysis of the deposited data

Results flagged for a closer look

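Genes annotated to the cell wall or apoplast took a larger share of nuclear counts in Mito than in Total in each same-numbered otp90 pair (0.03585 to 0.7575 percentage points) and a smaller share in each WT pair (−0.3596 to −0.2427 points). The result stands out because every otp90 pair moved one way and every WT pair the other. The difference between the genotypes was not tested, and the labels do not say whether the replicate numbers pair the libraries. Within otp90 the shares overlapped, at 8.374, 8.483 and 8.518% in Mito and 8.236, 8.447 and 7.76% in Total (exact permutation p = 0.2, two-sided, adjusted 0.22).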

How the results depend on the processing

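Leaving out 1 library gave 2673 to 4170 genes higher and 2474 to 4382 lower, rho with exon length of 0.496 to 0.562, and medians relative to all genes of 1.66 to 1.85 for mitochondrial and −1.12 to −0.89 for plastid genes. Library size alone gave 8795 higher and 1209 lower, a log2 fold of at least 1 left 1473 and 808, and the length correction with the replicate block left 2584 higher. Among 2087 well-expressed genes rho was 0.638, and 0.434 in genes of 1 exon. With the length correction, without and with the block, the median relative to all genes was 2.43 and 2.42 for mitochondrial and −0.43 and −0.45 for plastid genes, and these turned in sign: histones 0.33 and 0.32, short transcripts 0.07 and 0.06, snoRNAs 0.22 and 0.23, petB 0.28 and 0.28, rpoC2 −0.03 and −0.04, AT2G07732 0.06 and 0.05, and, without the block, plastid ribosomal proteins 0.01 and import receptors 0.0. With library size alone petB (0.18), ndhD (0.10), EXPA1 (0.01), PIP2A (0.08) and AT2G07732 (0.01) turned. The causes were not tested. DESeq2 called 6 genes in the comparison with WT and edgeR none. With DESeq2 173 of the results recomputed kept their direction and call, and 3 did not.

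The replicate numbers are shared by the 2 groups, but the labels do not say whether they pair the libraries. Deviations of same-numbered libraries correlated at 0.169, 0.167 and −0.26. With 3 libraries a group these values cannot settle the pairing. With the number as a block 3931 genes were higher and 3384 lower.

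Depth limits low genes: a gene with 0 counts in all Total libraries gives only a lower bound.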
